A study of Mus musculus with 622 samples.

Results

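The 7 genes described here encode class B1 G protein-coupled receptors for incretin, glucagon and related peptide hormones, chosen by name from the 44448 gene rows of the deposited table. They are Glp1r, Gipr, Gcgr, Adcyap1r1, Vipr1, Crhr1 and Crhr2. All 7 were present in the table. RNA was sequenced from 622 single pancreatic islet cells. The mice were of the C57BL/6 strain and wild type, and every cell gave a library of its own. Cells were captured on a C1 chip, a microfluidic device that isolates and lyses single cells, the SMARTer Ultra Low RNA kit was used to make cDNA, and the Nextera XT kit to prepare libraries for sequencing. No transgene, treatment or age is given, and no animal or chip is named, so all cells form 1 sample. The comparisons are between cells of 1 sample, and no test, standard error or p-value was computed.

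Cells were grouped by hormone RNA. A cell entered a group when 1 hormone held at least 90% of its summed Ins1, Ins2, Gcg, Sst and Ppy RPKM (mapped reads scaled to gene length and to the depth of the cell), after cells with fewer than 1000 genes at 1 RPKM were left out. This left 593 cells, of which 33 were glucagon cells, 13 somatostatin cells, 11 PP (pancreatic polypeptide) cells and 395 insulin cells. The other 141 cells had no hormone at 90% and are called mixed cells. Near the threshold, 25 cells had a leading share of 85 to 90% and 18 cells one of 90 to 95%, while 388 cells were at 99% or above. Grouping used the share of hormone RNA and not its amount. Summed hormone RPKM in insulin cells ran from 1455 to 1048833, with a median of 357130, so some insulin cells held little insulin RNA.

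Class B1 receptors bind peptide hormones of intermediate length through a large extracellular domain, and most of them couple to the stimulatory G protein Gs, which activates adenylyl cyclase and raises cAMP. In islet beta cells, GLP-1 and GIP, the incretins released by the gut after a meal, raise glucose-dependent insulin secretion through this route. Glucagon, made by neighbouring alpha cells, acts on beta cells through its own receptor and through the GLP-1 receptor.

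The hormone groups were checked against markers that the grouping did not use. Irx2, a transcription factor of alpha cells, reached 1 RPKM in 19 of 33 glucagon, 0 of 13 somatostatin, 0 of 11 PP and 10 of 395 insulin cells. Hhex, a transcription factor of delta cells, did so in 2 of 33 glucagon, 11 of 13 somatostatin, 1 of 11 PP and 30 of 395 insulin cells. Slc2a2, the glucose transporter of mouse beta cells, did so in 11 of 33 glucagon, 0 of 13 somatostatin, 1 of 11 PP and 350 of 395 insulin cells. Mafa, a beta-cell transcription factor, reached it in only 7 of 395 insulin cells. Other beta-cell markers varied. Slc30a8 reached 1 RPKM in 33 of 33 glucagon and 393 of 395 insulin cells, with means of 718.5 and 449.9 RPKM. G6pc2 did so in 30 of 33 and 395 of 395, with means of 43.5 and 1040 RPKM. Iapp did so in every cell of the 4 groups, with means of 34790 RPKM in somatostatin and 60290 RPKM in insulin cells. Pdx1, Nkx6-1 and Pcsk1 were found in 1, 4 and 3 of 33 glucagon cells and 238, 272 and 368 of 395 insulin cells. At least 3 markers of 1 non-endocrine class, most often immune cells in the insulin group, were present in 3 of 33 glucagon, 5 of 13 somatostatin, 6 of 11 PP and 43 of 395 insulin cells. The summed level of the 8 immune markers ran from 0 to 10380 RPKM in glucagon, 12940 in somatostatin, 517 in PP and 20480 in insulin cells. That of the 6 ductal markers reached 5147 RPKM in glucagon, 570 in somatostatin, 13840 in PP and 6346 in insulin cells. Leaving such cells out ended no 2-fold difference of a receptor given below.

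Depth also differed between groups of columns. The number format of the table parts the columns into 359 full-precision columns and 263 columns with values cut to 4 decimals, here called rounded, a split that the labels do not mention. Whole reads recovered from the RPKM values had a median of 811202 per full-precision column and 1607351 per rounded column. In insulin cells the median number of genes at 1 RPKM was 5707.5 in the 226 full-precision columns and 4140 among the 169 rounded ones. By group, the median number of genes was 4576 in glucagon, 4371 in somatostatin, 3798 in PP and 5259 in insulin cells. Shares and ratios were therefore also computed within each set of columns.

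The promoters of Glp1r, Gcgr and Vipr1 are shown first, as 3 of the 4 receptors whose RNA differed at least 2-fold between glucagon and insulin cells. That of Gipr, the other one, is not shown. Each is the 250 bases before the start of the gene on its own strand, from RefSeq in build GRCm38.p6, and the capitals mark GC boxes (GGGCGG, either strand). Glp1r lies at chr17:30901617-30901866, Gcgr at chr11:120530477-120530726 and Vipr1 at chr9:121642466-121642715, all on the plus strand. The Gcgr window lies inside the gene's annotated span, before the transcript start that RefSeq's promoter table uses.
Glp1r: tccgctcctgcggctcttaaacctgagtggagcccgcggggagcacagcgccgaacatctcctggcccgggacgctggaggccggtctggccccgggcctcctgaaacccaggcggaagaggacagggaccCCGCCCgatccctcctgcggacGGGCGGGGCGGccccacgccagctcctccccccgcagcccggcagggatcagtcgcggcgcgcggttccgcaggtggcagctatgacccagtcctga
Gcgr: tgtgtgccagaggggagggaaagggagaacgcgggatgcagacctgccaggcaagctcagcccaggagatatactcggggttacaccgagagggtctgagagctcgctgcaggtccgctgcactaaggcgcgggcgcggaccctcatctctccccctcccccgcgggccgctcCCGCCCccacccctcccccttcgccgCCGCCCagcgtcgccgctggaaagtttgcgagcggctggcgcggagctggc
Vipr1: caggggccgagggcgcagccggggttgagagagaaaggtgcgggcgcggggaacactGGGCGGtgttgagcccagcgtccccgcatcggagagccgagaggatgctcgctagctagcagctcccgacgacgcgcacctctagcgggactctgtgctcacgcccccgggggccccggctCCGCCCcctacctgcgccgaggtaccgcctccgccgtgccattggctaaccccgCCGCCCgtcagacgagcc
These letters are rich in G and C, at 73.2% in Glp1r, 70.4% in Gcgr and 72.8% in Vipr1, against a median of 52.4% over 32851 RefSeq promoters of the same length. Glp1r holds 3 GC boxes that begin 119, 97 and 92 bases before the start, the last pair sharing 1 base. Gcgr holds 2, at 77 and 51 bases, and Vipr1 holds 3, at 193, 72 and 18 bases. A GC box on either strand occurs in 32.7% of all promoters. None of the 3 windows holds TATAAA (12.4% of all promoters), the cAMP response element TGACGTCA (1.55%) or the homeodomain core TAATTA (4.84%) on either strand. The E-box CANNTG, in 66.2% of all promoters, occurs once in the Glp1r window and in neither of the others. The promoter of Crhr2, which no insulin cell expressed detectably, differs in these letters. It lies at chr6:55133017-55133266 on the minus strand, with a G and C content of 57.6%, a TATA box, an E-box and no GC box.
Crhr2: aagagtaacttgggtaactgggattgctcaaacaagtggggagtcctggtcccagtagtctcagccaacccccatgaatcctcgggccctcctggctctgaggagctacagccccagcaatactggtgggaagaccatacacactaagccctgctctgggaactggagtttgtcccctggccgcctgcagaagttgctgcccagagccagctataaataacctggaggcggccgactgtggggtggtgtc
The promoters of Adcyap1r1 and Crhr1, which were also rare, hold 1 GC box each and no TATA box, so GC boxes do not part detected from rare receptors. Their G and C content was 65.6% and 74.8%, so that content does not part them either. A match of letters is a description of the window and not a bound site.

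Glp1r, the receptor for GLP-1, was, among the 4 hormone groups, found almost only in insulin cells. The gene is at chr17:30901867-30936510 (Entrez 14652). It reached 1 RPKM in 1 of 33 glucagon cells, 0 of 13 somatostatin cells and 0 of 11 PP cells, against 175 of 395 insulin cells (44.3%, 95% exact interval 39.3 to 49.4%). The glucagon cell held a single read, worth 1.72 RPKM in that cell. Both somatostatin cells with any signal, at 0.999 and 0.974 RPKM, also held 1 read each, and no PP cell held any. With so few cells, a count of 0 still allows a share of up to 23.1% of somatostatin cells and 27.3% of PP cells. In insulin cells the level had a lowest value of 0, a median of 0.554, an upper quartile of 11.7 and a highest value of 155 RPKM. The levels thus ran from absent to high among cells with the same leading hormone, and 110 of 395 insulin cells (27.8%) exceeded 10 RPKM.

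The mean level of Glp1r was 0.0521 RPKM in glucagon cells, 0.152 in somatostatin cells, 0 in PP cells and 12.7 in insulin cells. The log2 ratio of (mean + 1) was -3.70 in glucagon over insulin cells and -3.57 in somatostatin over insulin cells, and PP cells were listed at 0. The 1 glucagon read was in a rounded column, where the ratio was -3.24, and Glp1r was listed at 0 in the full-precision glucagon cells. The order of the 3 low groups rests on 3 single reads and is not resolved. The share of insulin cells at 1 RPKM differed between the sets of columns, at 126 of 226 full-precision columns (55.8%, 49.0 to 62.3%) and 49 of 169 rounded columns (29.0%, 22.3 to 36.5%). The gap remained when each cell was thinned to 250000 reads and counted with 1 read or more, at 52.9% and 28.0%. Within the rounded columns, Glp1r was found in 2 of the 42 insulin cells with the fewest genes and in 18 of the 43 with the most. Within the full-precision columns the corresponding counts were 28 of 56 and 31 of 57. The part of gene number in the difference between the sets was not tested. The table implies a gene length of 1480 bases for Glp1r, against 5811 exonic bases in GENCODE M21, so 1 read at a depth of 1000000 reads is worth 0.676 RPKM for Glp1r and between 0.152 and 0.435 RPKM for the other 6 receptors.

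Gipr, the receptor for GIP, was found in the most insulin cells over all columns, though Glp1r was found in more of the full-precision ones. Of Glp1r, Gipr and Gcgr it was also found in the most cells of the glucagon, somatostatin and PP groups together. The gene is at chr7:19156063-19170248 (Entrez 381853). It reached 1 RPKM in 5 of 33 glucagon cells (15.2%, 5.11 to 31.9%), 1 of 13 somatostatin cells and 2 of 11 PP cells, against 193 of 395 insulin cells (48.9%, 43.8 to 53.9%). The 5 glucagon cells had 8.42, 7.72, 5.36, 4.78 and 1.34 RPKM, from 7, 48, 33, 9 and 9 reads. The somatostatin cell had 12.1 RPKM from 34 reads, and the PP cells had 5.51 and 2.21 RPKM from 47 and 10 reads. These signals are therefore more than single reads, unlike those of Glp1r in the same groups. In insulin cells the lowest level was 0, the median 0.926 and the highest 128 RPKM.

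Mean Gipr was 0.849 RPKM in glucagon, 0.933 in somatostatin, 0.723 in PP and 6.36 in insulin cells. The log2 ratios over insulin cells were -1.99 for glucagon, -1.93 for somatostatin and -2.09 for PP cells. The somatostatin mean came from 1 full-precision cell, where the ratio was -1.35, and without it that group is at 0. In PP cells the ratio was -1.72 in full-precision columns, and Gipr was listed at 0 in the rounded ones. The 3 low means lie close together, and each rests on 1 to 7 cells with any read. In insulin cells Gipr reached 1 RPKM in 53.5% of full-precision and 42.6% of rounded columns, and after thinning at least 1 read was found in 56.5% and 45.8%. The interval of the full-precision share, 46.8 to 60.2%, overlaps that of the rounded share, 35.0 to 50.4%. Overlap of intervals does not show equal shares.

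Gcgr, the receptor for glucagon itself, followed the pattern of Glp1r. The gene is at chr11:120529185-120538989 (Entrez 14527). It reached 1 RPKM in 0 of 33 glucagon cells (a count that still permits a share of up to 9.09%), in 1 of 13 somatostatin cells and in 0 of 11 PP cells, against 140 of 395 insulin cells (35.4%, 30.7 to 40.4%). In glucagon cells 5 held 1 read each, at 0.281 to 0.513 RPKM. The somatostatin cell had 3.10 RPKM from 7 reads, and the highest PP cell had 0.580 RPKM from 1 read. The median insulin cell was at 0, the upper quartile at 4.25 RPKM and the highest cell at 874 RPKM, from 3440 reads. That cell alone held 18.2% of the summed Gcgr RPKM of all insulin cells.

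Mean Gcgr was 0.0563 RPKM in glucagon, 0.254 in somatostatin, 0.129 in PP and 12.1 in insulin cells, and the insulin mean was 9.94 without its highest cell. The log2 ratios over insulin cells were -3.63 for glucagon, -3.39 for somatostatin and -3.54 for PP cells. They differed little between full-precision and rounded columns in glucagon cells, at -3.60 and -3.68. The share of insulin cells at 1 RPKM was 38.9% in full-precision and 30.8% in rounded columns.

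Vipr1, a receptor for the neuropeptides VIP and PACAP, had a different distribution and was the only member with a higher mean in glucagon than in insulin cells. The gene is at chr9:121642716-121672954 (Entrez 22354). It reached 1 RPKM in 12 of 33 glucagon cells (36.4%, 20.4 to 54.9%), 0 of 13 somatostatin cells and 1 of 11 PP cells, against 81 of 395 insulin cells (20.5%, 16.6 to 24.8%). The 12 glucagon cells ran from 1.38 RPKM with 5 reads to 101 RPKM with 683 reads, and the next highest had 49.1, 31.5, 23.4 and 18.2 RPKM. The PP cell had 22.5 RPKM from 105 reads, and no somatostatin cell held a read. Insulin cells had a median of 0 and a highest value of 276 RPKM, and 25 of them (6.33%) exceeded 10 RPKM. The intervals of the glucagon and insulin shares overlap, which does not show that the shares are equal.

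Mean Vipr1 was 7.60 RPKM in glucagon, 0 in somatostatin, 2.09 in PP and 2.60 in insulin cells. The log2 ratio was 1.26 in glucagon over insulin cells, with 1.47 in full-precision and 1.02 in rounded columns. Without the highest cell of each group, an alternative chosen after seeing the data, the means were 4.69 RPKM in glucagon and 1.91 RPKM in insulin cells and the ratio was 0.97, just under 2-fold. After thinning to 250000 reads, 12 of 32 glucagon cells (37.5%) and 103 of 391 insulin cells (26.3%) held at least 1 Vipr1 read. In PP cells the ratio over insulin cells was -0.22, with 0.74 in full-precision and -2.12 in rounded columns, so its direction depended on the set. It rests on 1 cell, without which the PP mean was 0.0473 RPKM. Of the 33 glucagon cells, 3 held both Gipr and Vipr1 at 1 RPKM, 14 held at least 1 of the pair, and the other 19 held neither.

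**Figure D1:**
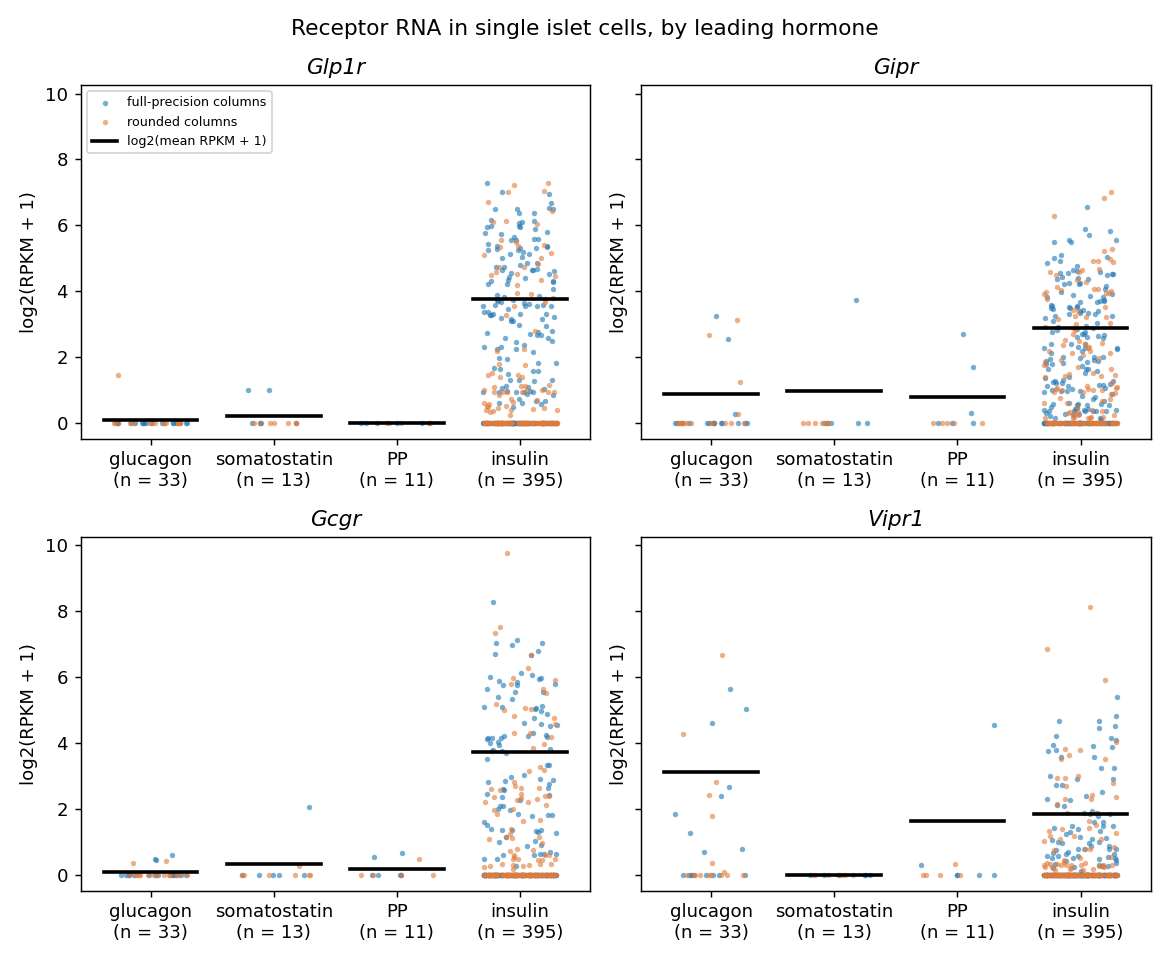
RPKM of Glp1r, Gipr, Gcgr and Vipr1 in every cell as log2(RPKM + 1), for glucagon, somatostatin, PP and insulin cells, with points coloured by the number format of the column and a black bar at log2(mean RPKM + 1). Among these 4 groups, Glp1r and Gcgr stay near 0 outside insulin cells. In insulin cells they reach 155 and 874 RPKM, while Vipr1 reaches 101 RPKM in a glucagon cell.

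The plot of single cells shows that the insulin mean of each receptor lies above most insulin cells. The 20 highest of the 395 insulin cells held 41.0% of the summed RPKM of Glp1r, 41.5% of that of Gipr, 62.3% of that of Gcgr and 74.7% of that of Vipr1. Among insulin cells at 1 RPKM or more, the median level was 15.9 RPKM for Glp1r, 7.17 for Gipr, 13.0 for Gcgr and 4.12 for Vipr1. Gipr thus had a lower median where found than Glp1r or Gcgr, on a scale that depends on the gene length used, which for Glp1r was 1480 bases.

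**Figure D2:**
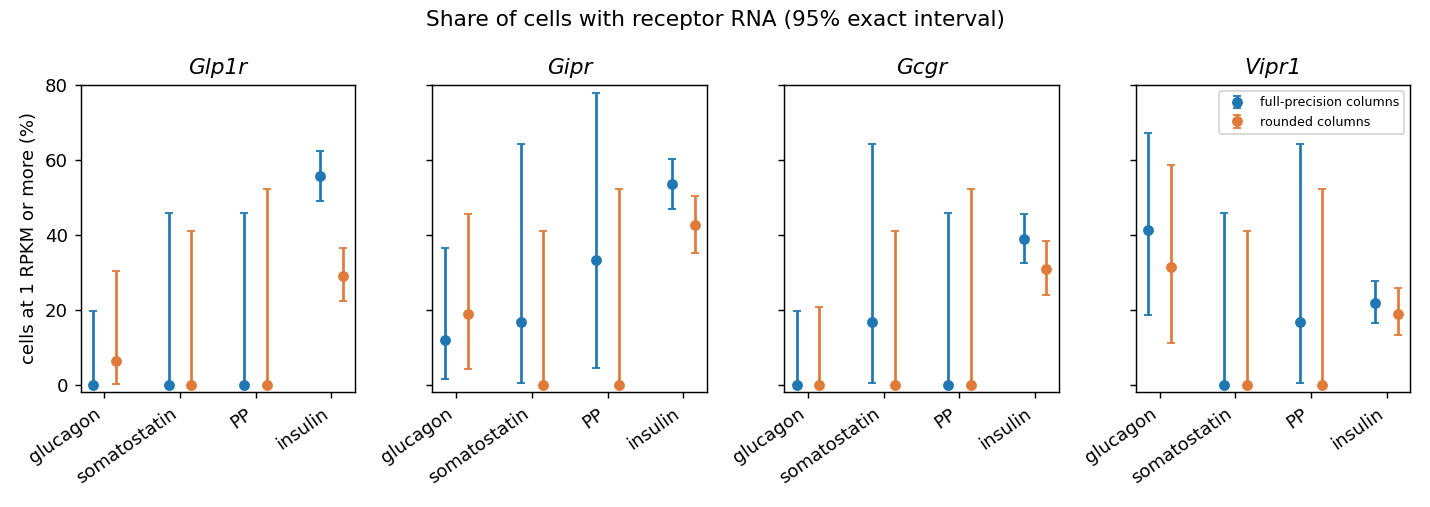
Percent of cells at 1 RPKM or more for each receptor, by hormone group and number format of the column, with exact 95% intervals that cover counting error only. The full-precision and rounded intervals of insulin cells do not overlap for Glp1r, at 55.8% and 29.0%, and overlap for Gipr, Gcgr and Vipr1. Overlap does not show equal shares, and no test was run.

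The remaining 3 members were rare in every group. Their highest cells were mixed for Adcyap1r1, at 28.2 RPKM from 226 reads in a PP and somatostatin cell, and for Crhr1, at 43.8 RPKM from 147 reads in an insulin and somatostatin cell. Adcyap1r1, the receptor specific for PACAP, at chr6:55451501-55501455 (Entrez 11517), reached 1 RPKM in 0 of 33 glucagon, 0 of 13 somatostatin, 1 of 11 PP and 1 of 395 insulin cells. The PP cell had 3.72 RPKM from 47 reads, and the insulin cell had 13.0 RPKM from 38 reads. Crhr1, the main receptor for corticotropin-releasing hormone, at chr11:104130463-104175523 (Entrez 12921), was found in 0 of 33 glucagon, 0 of 13 somatostatin, 0 of 11 PP and 7 of 395 insulin cells (1.77%, 0.715 to 3.62%). Those 7 cells ran from 1.92 to 10.6 RPKM, and 6 of them were in full-precision columns. The annotated span of Crhr1 overlaps the noncoding gene Gm35469, and whether the authors' counting used strand is not given in the sources used here. Crhr2, the receptor for urocortins, at chr6:55090048-55133016 (Entrez 12922), was found in 0 of 33 glucagon, 1 of 13 somatostatin, 0 of 11 PP and 0 of 395 insulin cells, the last allowing a share of up to 0.760%. A mixed insulin and somatostatin cell had 5.78 RPKM from 18 reads. The somatostatin cell had 11.7 RPKM from 29 reads, and it was also one of the pair of somatostatin cells with a single Glp1r read.

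Set against all genes, 3 of the 4 members whose mean reached 1 RPKM in at least 1 of the groups were at least 2-fold lower in glucagon than in insulin cells, and 1 was at least 2-fold higher. In that comparison 22.6% of 12665 genes were at least 2-fold lower and 10.7% at least 2-fold higher. The median log2 ratio was -2.81 over these 4 members and -0.20 over all genes. Glp1r, Gipr and Gcgr passed the filter only through insulin cells in this comparison and in the next 2, as did Vipr1 against somatostatin cells. Any 2-fold difference of theirs could only be a lower one, and nothing is read from these counts. In somatostatin against insulin cells all 4 were at least 2-fold lower, Vipr1 by being listed at 0, against 29.1% of 12675 genes lower and 20.0% higher. In PP against insulin cells 3 of 4 were lower, Glp1r by being listed at 0, against 33.2% of 12721 genes lower and 16.0% higher. Adcyap1r1, Crhr1 and Crhr2 did not pass the filter in any comparison.

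**Figure D3:**
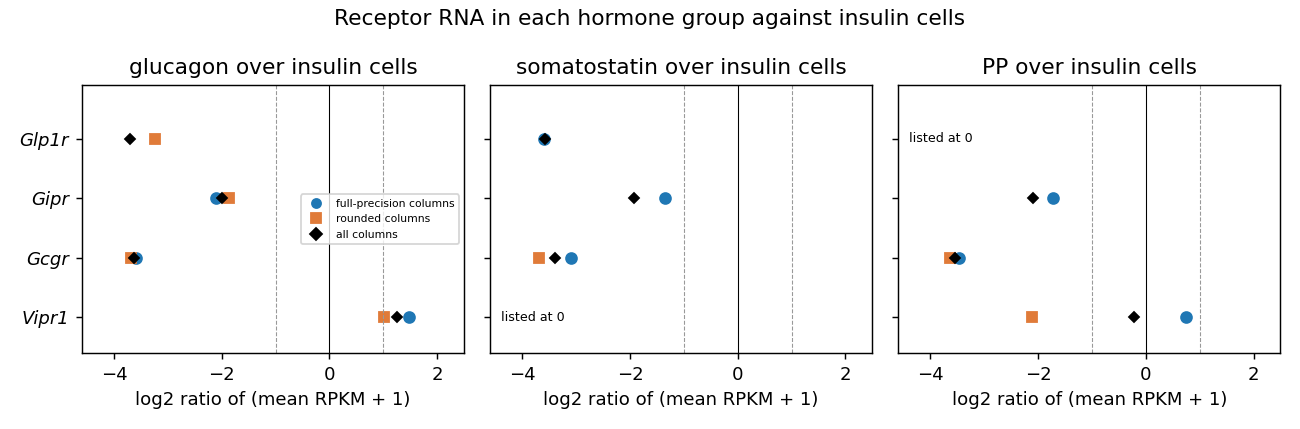
Log2 ratio of (mean RPKM + 1) in glucagon, somatostatin and PP cells over insulin cells for 4 receptors, from all columns and from each number format, with dashed lines at 2-fold and no symbol where the group's mean is 0. Glp1r, Gipr and Gcgr lie beyond 2-fold on the lower side wherever a ratio exists, and Vipr1 lies at 1.26 in glucagon cells.

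Most insulin cells held RNA of at least 1 of the 7 receptors, and few held many. The number of members at 1 RPKM per insulin cell was 0 in 73 cells (18.5%, 14.8 to 22.7%), 1 in 128, 2 in 125, 3 in 58, 4 in 10 and 5 in 1 cell. The median was 1 over all insulin cells, 2 over full-precision and 1 over rounded columns. Glp1r, Gipr and Gcgr were all at 1 RPKM in 43 of 395 insulin cells (10.9%, 7.99 to 14.4%), where the product of their separate shares gives 30.3 cells. Split by number format, 32 of 226 full-precision cells held all 3, with a product of 26.3, and 11 of 169 rounded cells did, with a product of 6.42. None of the 3 was found in 91 insulin cells (23.0%), of which 36 were full-precision and 55 rounded.

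**Figure D4:**
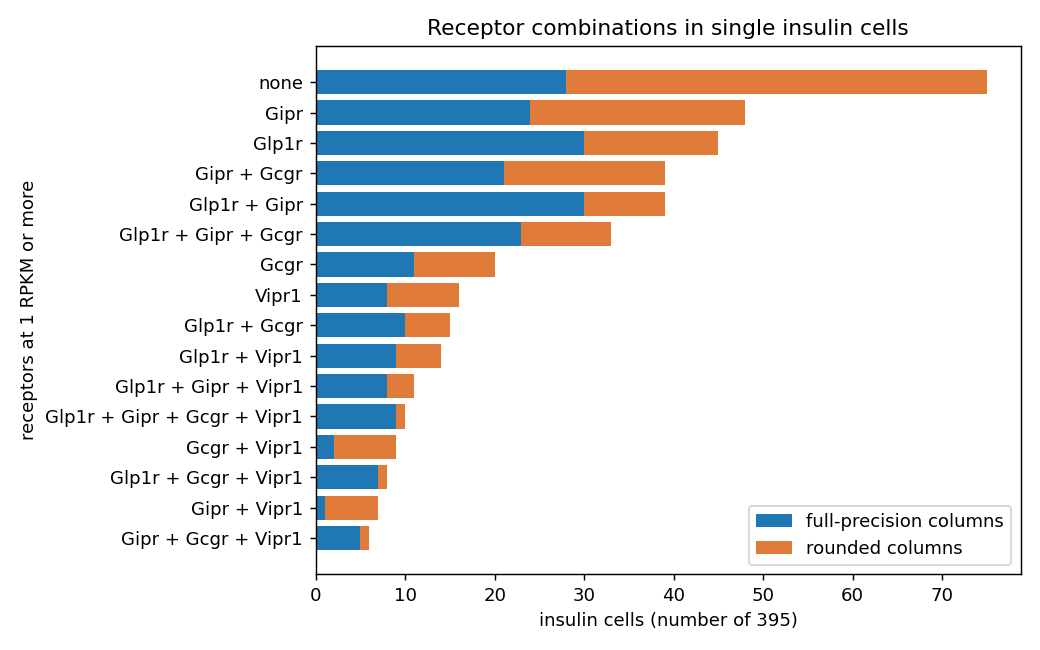
Number of insulin cells with each combination of Glp1r, Gipr, Gcgr and Vipr1 at 1 RPKM or more, coloured by the number format of the column. The largest class is the 75 cells with none of the 4, and 10 cells held all 4.

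By combination, 75 insulin cells held none of Glp1r, Gipr, Gcgr and Vipr1, 48 held Gipr alone and 45 held Glp1r alone. The pairs Gipr with Gcgr and Glp1r with Gipr each made up 39 cells, and Glp1r, Gipr and Gcgr without Vipr1 made up 33. Gcgr alone was found in 20 cells and Vipr1 alone in 16. The cells with none had a median of 4075 genes and 1399488 reads, and the 10 cells with all 4 had 6346 genes and 691674 reads. Gene number did not follow the number of receptors in every class between these. Cells with Gcgr and Vipr1 alone, for example, had a median of 3957 genes. The part of gene number in the combinations was not tested.

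Among the 6 pairs of these 4 receptors, Gipr and Gcgr stood together most often relative to their separate shares at 1 RPKM, though not after thinning, where Gcgr with Vipr1 had a higher ratio of 1.31. Both were found in 88 insulin cells, where the product of the shares gives 68.4, a ratio of 1.29. Gcgr was found in 45.6% of insulin cells with Gipr and in 25.7% of insulin cells without it. The ratio was 1.23 over full-precision and 1.35 over rounded columns, 1.25 after thinning to 250000 reads, and between 1.14 and 1.46 over all alternatives. The Spearman correlation of their log2(RPKM + 1) over the 395 cells was 0.20, which is weak, and the cells differ in depth. Glp1r stood closer to the product with both of the others at 1 RPKM. Glp1r and Gipr were found together in 93 cells against a product of 85.5, a ratio of 1.09, and Glp1r and Gcgr in 66 against 62.0, a ratio of 1.06. These ratios were 1.04 and 1.00 in full-precision columns and 1.10 and 1.13 in rounded columns, and 0.98 and 1.05 after thinning. For Glp1r with Gcgr the thinned ratio was 0.93 in full-precision columns and 1.28 in rounded columns. Gipr with Gcgr also had a thinned ratio of 1.28 in rounded columns.

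Vipr1 was found with Glp1r in 43 insulin cells against a product of 35.9, with Gcgr in 33 against 28.7, and with Gipr in 34 against 39.6. The ratios were 1.20, 1.15 and 0.86, and after thinning to 250000 reads they were 1.15, 1.31 and 1.01. For Gcgr with Vipr1 the thinned ratio was 1.43 in full-precision and 1.03 in rounded columns. At 1 RPKM in full-precision columns, Glp1r and Gcgr each had a ratio of 1.21 with Vipr1, close to the 1.23 of Gipr with Gcgr. Over all columns the correlations of the levels lay between -0.01 and 0.10. Over 5725 genes, no gene's level followed that of a receptor closely across insulin cells. The highest smaller correlation of the 2 column sets was 0.21 with Cert1 for Glp1r, 0.20 with Pcmtd2 for Gipr, 0.19 with Gad1 for Gcgr and 0.20 with Tmem65 for Vipr1. The next genes were G6pc2 and Kmt2e for Glp1r, Meg3 and Fosb for Gipr, Arf5 and Cacna1d for Gcgr, and Kcnip1 and Zfp746 for Vipr1, at 0.18 to 0.20. In sparse single-cell values these are too weak to set apart.

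Mixed cells are described by their 2 leading hormones. In the 65 cells led by glucagon and insulin, Glp1r was found in 20 (30.8%), Gipr in 33 (50.8%), Gcgr in 18 (27.7%) and Vipr1 in 20 (30.8%). The 28 insulin and somatostatin cells held Glp1r in 12, Gipr in 11, Gcgr in 9 and Vipr1 in 6. The 23 PP and insulin cells held Glp1r in 11, Gipr in 8, Gcgr in 5 and Vipr1 in 6. Where insulin was not among the 2 leading hormones, Glp1r was found in 0 of 8 PP and glucagon cells and in 1 of 16 PP and somatostatin cells. Vipr1 was found in 5 of those 8 and in 0 of those 16, with Gipr in 1 and 3 cells and Gcgr in 2 and 1. Gcgr stood at 53.0 RPKM (60 reads) and 41.5 RPKM in 2 of the PP and glucagon cells. It stood at 117 RPKM (134 reads) in the PP and somatostatin cell. The PP and somatostatin cell with Glp1r had 35.25 RPKM from 26 reads. Insulin held a median of 6.30% of summed hormone RPKM in PP and glucagon cells and 1.16% in PP and somatostatin cells. The 1 glucagon and somatostatin cell held none of the 4. Whether a mixed cell is 1 cell or a doublet cannot be told apart here. Mixed cells led by glucagon and insulin had a median of 5940 genes, against 5259 in insulin cells.

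The other 8 class B1 receptors, Glp2r, Sctr, Ghrhr, Vipr2, Pth1r, Pth2r, Calcr and Calcrl, were near absent. The most frequent in each group were Calcrl, in 2 of 33 glucagon and 1 of 13 somatostatin cells, and Vipr2, in 9 of 395 insulin cells. No PP cell held any of them at 1 RPKM. Of the 3 Ramp genes, whose proteins associate with receptors of this class, Ramp2 reached 1 RPKM in 2 of 33 glucagon, 1 of 13 somatostatin, 0 of 11 PP and 72 of 395 insulin cells. Ramp1 did so in 0 of 33 glucagon, 2 of 13 somatostatin, 1 of 11 PP and 24 of 395 insulin cells. Ramp3 did so in 1 of 33 glucagon, 0 of 13 somatostatin, 0 of 11 PP and 4 of 395 insulin cells.

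Of 10 ligand genes of the class, 3 reached 1 RPKM in any cell of the 4 groups. Gcg, the precursor of glucagon and GLP-1, defined the glucagon cells and is not a result there. It also reached 1 RPKM in 12 of 13 somatostatin, 10 of 11 PP and 377 of 395 insulin cells. Its means there were 243, 557 and 644 RPKM, and the origin of this RNA was not tested. Ucn3, the urocortin ligand of Crhr2, averaged 1.26 RPKM in glucagon, 0.621 in somatostatin, 1.05 in PP and 446 RPKM in insulin cells, and reached 1 RPKM in 393 of 395 insulin cells. The same insulin cells held no Crhr2 read. Sct, the secretin gene, averaged 8.82 RPKM in glucagon and 0.0155 RPKM in insulin cells, and 3 of 33 glucagon cells reached 1 RPKM, against 4 of 395 insulin cells. All 3 were among the 17 glucagon cells in full-precision columns, where the log2 ratio was 4.17. Sct was listed at 0 in the 16 glucagon cells in rounded columns, so the difference was in 1 set of columns. Gip, Adcyap1, Vip, Crh, Ucn, Ucn2 and Ghrh were listed at 0 in all cells of the 4 groups.

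Downstream of the receptors, 37 genes of Gs and cAMP signalling were followed. In glucagon against insulin cells 26 passed the mean of 1 RPKM, of which 7 were at least 2-fold lower and 4 at least 2-fold higher, where 22.6% of all genes were lower and 10.7% higher, with a median log2 ratio of -0.17 beside -0.20 for all genes. Gnas, which encodes the Gs alpha subunit, averaged 278 RPKM in glucagon and 51.9 RPKM in insulin cells, a log2 ratio of 2.40, and was found in 33 of 33 and 392 of 395 cells. Adcy6, an adenylyl cyclase, averaged 7.02 and 2.28 RPKM in glucagon and insulin cells, a ratio of 1.29. Grk6, a receptor kinase, had a ratio of 1.27, with 2.08 in full-precision and -1.52 in rounded columns, so its direction depended on the set. On the lower side, Prkar2b, a regulatory subunit of protein kinase A, reached 1 RPKM in 0 of 33 glucagon and 150 of 395 insulin cells, with a ratio of -3.67. Grk2, another receptor kinase, had a ratio of -1.46, and Pde4b, a cAMP phosphodiesterase, one of -1.43. For Pde4b the ratio was -0.88 in full-precision columns, under 2-fold, and -2.79 in rounded columns.

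In somatostatin against insulin cells 25 of the 37 passed, with 8 lower and 5 higher, where 29.1% of all genes were lower and 20.0% higher. In PP against insulin cells 28 passed, with 13 lower and 3 higher, where 33.2% of all genes were lower and 16.0% higher. No difference between these counts and the shares of all genes was tested, and nothing is read from them. Gnas averaged 196 RPKM in somatostatin, 52.9 in PP and 51.9 in insulin cells, so PP and insulin cells had nearly the same mean. Prkar2b averaged 1.81 RPKM in somatostatin and 12.3 in insulin cells, a log2 ratio of -2.24. Adenylyl cyclase Adcy9 and the cAMP sensor Rapgef4, which is involved in exocytosis in beta cells, were found in 227 and 291 of 395 insulin cells.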

How the data were processed

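The authors deposited 1 table of RPKM values for 44448 genes named by Entrez ID, with 1 column for each of 622 cells, and all columns were used. Per the submitters' processing notes, CASAVA 1.8.2 and FastQC were run and the build was GRCm38 (mm10). What aligned and counted the reads, and against which gene models, is not given in the sources used here. Symbols and positions came from RefSeq tables of the same build.

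Means, shares, ratios and co-detection were computed from RPKM as deposited with Python 3.11.15, pandas 2.3.3, NumPy 2.4.6 and SciPy 1.17.1. A gene was found in a cell at 1 RPKM or more. Intervals of shares are exact (Clopper-Pearson, 95%), and for a count of 0 the upper limit is 3 counts of the total. Both cover counting error only, and reads without molecular identifiers are not independent molecules. Ratios are log2((mean + 1)/(mean + 1)), which understate changes of low genes, and a difference is at least 2-fold. Genes with a mean of 1 RPKM or more in either group form the background. No count model was used. Cells are not replicates, so no p-value was computed.

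Whole reads were recovered from the RPKM values for 25247 of 25529 genes that at least 3 full-precision cells contained. All recovered values under 100 reads were whole within 0.05 reads (100.0%). The full-precision values set the unit of each gene. Each rounded column was then given the scale at which its low values were most often whole. The rounded columns are therefore only a partial check, of the gene units and not of the scale. The cells had a median of 1119227 mapped reads, from 2461 to 6111829. Reads served for depth and for thinning to 250000 reads, which left out 1 glucagon and 4 insulin cells. No doublet caller was run, and cells with no hormone at 90% were kept apart. The methods were tested on simulated data.

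All 7 members are named, with the other class B1 receptors, the ligands and the Ramp genes. From the cAMP list the 3 largest ratios in each direction in glucagon against insulin cells are named, among genes whose mean reached 5 RPKM on either side. Later values of Gnas, Prkar2b, Adcy9 and Rapgef4 were chosen after their values were seen. Genes most like a member were ranked by the smaller Spearman correlation of both column sets. The members and lists were chosen with earlier results of these data known.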

Additional observations from a re-analysis of the deposited data

How the results depend on the processing

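No paired analysis was possible because the labels give 1 group of cells. With a pseudocount of 10 RPKM, 2 members were at least 2-fold different in glucagon cells and 2 in somatostatin cells, in place of 4 in each, by the construction of the ratio. The log2 ratios of Glp1r and Gcgr stayed beyond 2-fold in all 13 alternatives in each of the 3 comparisons, and those of Gipr in 12 of 13, the exception being that pseudocount. The ratio of Vipr1 in glucagon over insulin cells ran from 0.48 to 1.51 and was under 2-fold in 4 of 13 alternatives: 0.96 at a hormone share of 80%, 0.48 at a pseudocount of 10 RPKM, 0.68 as a difference of mean log2 values, and 0.97 without the highest cell of each group. The share of insulin cells with Glp1r, Gipr and Gcgr together, 10.9%, was 17.2% with any RPKM above 0, 3.04% at 5 RPKM and 6.51% in the rounded columns. The median number of members per insulin cell, 1, was 2 with any RPKM above 0, at a hormone share of 80%, with a filter of 3000 genes, in the full-precision columns and without cells holding non-endocrine markers. Of 6 pairs, 5 exceeded the product of their shares, and 3 did at 5 RPKM. Pairs near the product changed side. Glp1r with Gipr had a ratio of 0.993 above 0 RPKM and 0.981 after thinning. Glp1r with Gcgr had 0.977 above 0 RPKM, 0.979 at 5 RPKM and 0.999 in the full-precision columns. Glp1r with Vipr1 had 0.963 at 5 RPKM, and Gipr with Vipr1 had 1.06 above 0 RPKM and 1.01 after thinning. The cause of these shifts was not tested. With 33, 13 and 11 cells in the glucagon, somatostatin and PP groups, a count of 0 still allows shares of up to 9.09%, 23.1% and 27.3%.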
